A study of Mus musculus with 18 samples.

Results

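White fat was compared with skeletal muscle of the same C57BL/6J mouse series, using 6 white fat libraries and 6 muscle libraries, 12 of the 18 RNA-seq libraries given. The 4 groups, each with 3 libraries, were white fat of quercetin-treated mice, white fat of vehicle-treated mice, muscle of quercetin-treated mice and muscle of vehicle-treated mice. Quercetin was given by oral gavage at 0.125 mg/kg, and every group, vehicle included, received the carrier of 10% PEG400 in PBS. The series was made to study a long-term low dose of this flavonoid; the labels do not give the fat depot, the muscle, or the age and sex of the sequenced mice. The members were chosen by tissue label alone, treatment was a covariate in the fit, and each fold change is the level in white fat over the level in muscle. Values are CPM (each count as a share of the library total, on a fixed scale), with totals adjusted by the trimmed mean of M-values (TMM), and a gene was called at a Benjamini-Hochberg adjusted p under 0.05 in edgeR's quasi-likelihood test over 15411 genes. Gene counts were 8612506 to 10283073 per white fat library and 8997823 to 12311345 per muscle library.

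White adipose tissue stores triglyceride in adipocytes that take up fatty acids and glucose, release fatty acids by lipolysis, and secrete hormones such as leptin and adiponectin. The tissue also holds endothelial cells, fibroblast-like progenitors, macrophages and, in some depots, lymph nodes. Skeletal muscle is built of multinucleate fibres whose sarcomeres of myosin and actin shorten when calcium leaves the sarcoplasmic reticulum, and which burn glucose and fatty acids to remake ATP.

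Several libraries stood apart, and they bear on the results that follow. Correlations of log2 CPM across genes were 0.556 to 0.795 between white fat and muscle libraries, 0.641 to 0.955 among white fat libraries and 0.886 to 0.967 among muscle libraries. White fat vehicle 1 and quercetin 2 were read on flow cell H7GKJDSXX and the other 4 white fat libraries on H7H2WDSXX. Summed T cell markers were 9.96 and 10.4 CPM in the white fat libraries of H7GKJDSXX and 506 to 797 CPM in those of H7H2WDSXX, so flow cell and lymphocyte transcripts moved together within white fat. White fat vehicle 2 had the lowest sum of white adipocyte markers, 2154 CPM, and the highest sum of muscle fibre markers among the white fat libraries, 1682 CPM. Muscle vehicle 3 had the highest sum of white adipocyte markers among the muscle libraries, 23468 CPM. Muscle quercetin 2 held 31002 CPM of summed male reproductive gland markers, which were at or below 1.19 CPM in every other library used.

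Of the 15411 genes tested, 49.6% were called, 26.5% higher in white fat (4086 genes) and 23.1% lower (3554 genes). Against a 2-fold change in place of no change, 24.2% were called, 1978 higher and 1747 lower. In 9.29% of genes every white fat library lay above every muscle library, and in 15.6% every white fat library lay below. With libraries scaled by their size alone, the median log2 fold change over all genes was 0.83, against 0.17 with TMM, and the calls were 7302 higher and 2029 lower, 78.3% higher against 53.5% with TMM. The 10 most abundant genes by CPM were mt-Co1, Fabp4, Scd1, mt-Cytb, Car3, Apoe, Gsn, Cfd, Eef1a1 and mt-Nd1 in white fat, and mt-Co1, Myh4, Acta1, Tnnt3, mt-Cytb, mt-Nd1, Atp2a1, Aldoa, Tpm1 and mt-Nd2 in muscle. In bulk tissue, fewer cells of a type and less RNA per cell cannot be told apart.

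Genes of the contractile apparatus were nearly all lower in white fat. Of 18 tested thick filament genes, 18 were lower in white fat (median log2 fold change -9.56), and of 35 tested thin filament and Z-disc genes, 34 were lower and 1 higher (median -8.61), where 23.1% of all genes were lower and the median over all genes was 0.17. The counts were the same with scaling by library size alone. In 16 of the thick filament genes and 31 of the thin filament and Z-disc genes no white fat library reached the lowest muscle library, and over all genes 15.6% did so. The 19 tested markers of the muscle fibre were all lower, median -10.22. Here and in the muscle lists below, a gene near 0 in white fat passed the count filter only through muscle and could be called only lower. Among genes without overlap and with a mean of at least 50 CPM in muscle, the 10 furthest below were Myoz3, Myh4, Mybph, Atp2a1, Ckm, Actn3, Trim63, Myh1, Mylk4 and Abra, all genes of striated muscle.

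Myh4 (ENSMUSG00000057003, chromosome 11, 67238029 to 67260446, plus strand of GRCm38), the fast glycolytic (IIb) myosin heavy chain, had 0 to 113 CPM (median 0.648) in white fat, against 21569 to 45234 CPM (median 27439) in muscle. For Myh4 the log2 fold change was -12.62 ± 2.33 (SE; adjusted p = 0.00103). The groups lay far apart, and the 113 CPM came from white fat vehicle 2. Myh1, the fast IIx heavy chain, had 0 to 17.4 CPM (median 0.191) in white fat, against 2469 to 7197 CPM (median 4499) in muscle (log2 fold change -11.64, adjusted p = 0.000252). Acta1 (ENSMUSG00000031972, chromosome 8, 123891769 to 123894751, minus strand), skeletal muscle actin, had 13.6 to 261 CPM (median 56.5) in white fat, against 15930.0 to 39416 CPM (median 24269) in muscle (log2 fold change -8.33 ± 1.0 (SE), adjusted p = 5.98e-05), so every white fat library held some Acta1 but none came near muscle. Titin, the giant spring of the sarcomere, and nebulin, the ruler of the thin filament, had log2 fold changes of -8.96 and -9.41. Myom1, which links myosin filaments at the M-band, was lower (log2 fold change -7.96 ± 0.57 (SE), adjusted p = 1.7e-06). Actn3, the fast-fibre Z-disc actinin, was lower as well (log2 fold change -11.70, adjusted p = 0.00125). Mybph, a myosin-binding protein, was at 0 to 0.155 CPM in white fat, with 3 counts in all, and at 4.91 to 466 CPM in muscle. Myoz3, a Z-disc protein that binds calcineurin, had no count in any white fat library and 10.1 to 169.5 CPM (median 103) in muscle. Taking 3 counts over the white fat group as the floor, Myoz3 was at least 2151-fold lower in white fat, an estimate that covers counting error only. The exception in the direction was Tpm3, a tropomyosin made both in slow fibres and in non-muscle cells, with 149.8 to 337 CPM (median 254) in white fat, against 63.3 to 183 CPM (median 104) in muscle. For Tpm3 the log2 fold change was 1.2 ± 0.25 (SE; adjusted p = 0.00212). Tpm1, the fast-fibre and smooth muscle tropomyosin, went the other way, with 62.4 to 176 CPM (median 74.6) in white fat, against 8053 to 19695 CPM (median 11702) in muscle (log2 fold change -7.17 ± 0.55 (SE), adjusted p = 2.86e-06).

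**Figure D1:**
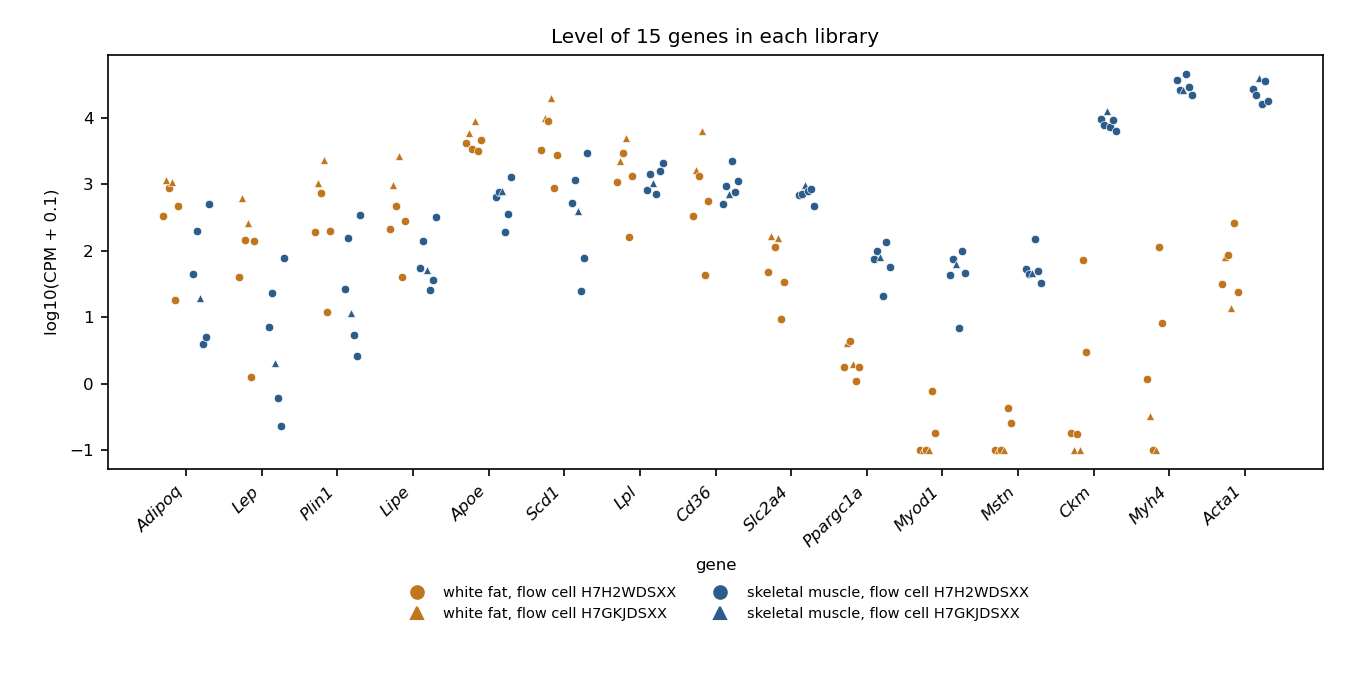
Expression of selected genes in each library, as the logarithm of CPM plus a small constant, with white fat libraries beside muscle libraries and 1 point per library. Contractile genes such as Myh4 and Acta1 are separated in every library, while Adipoq and Lep overlap, with white fat vehicle 2 among the lowest white fat points.

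The regions just before the starts of 3 of these contractile genes and of the adipocyte gene Adipoq are printed. The 3 were among the contractile genes whose windows held the most kinds of the matches marked below, so they do not stand for their lists. Each is the 250 bases upstream of the RefSeq start in GRCm38.p6, 5′ to 3′ on the gene's own strand: Myh4 at chr11:67237562-67237811 (plus), Myh1 at chr11:67199852-67200101 (plus), Acta1 at chr8:123894776-123895025 (minus) and Adipoq at chr16:23146286-23146535 (plus). Capitals mark matches on either strand to the E-box CAGCTG bound by MyoD-type factors, to the TATA box TATAAA, to the MEF2 consensus and to the CArG box of serum response factor. In Myh4 and Myh1 the MEF2 match overlaps a TATA match.
Myh4: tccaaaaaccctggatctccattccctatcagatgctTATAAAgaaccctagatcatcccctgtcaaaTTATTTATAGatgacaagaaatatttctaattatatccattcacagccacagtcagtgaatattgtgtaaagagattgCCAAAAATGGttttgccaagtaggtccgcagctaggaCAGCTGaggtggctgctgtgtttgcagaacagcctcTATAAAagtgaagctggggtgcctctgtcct
Myh1: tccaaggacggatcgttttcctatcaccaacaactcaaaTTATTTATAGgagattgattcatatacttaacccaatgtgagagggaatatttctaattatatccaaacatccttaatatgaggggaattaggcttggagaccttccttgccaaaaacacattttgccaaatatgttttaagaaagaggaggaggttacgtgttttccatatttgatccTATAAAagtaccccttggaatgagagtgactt
Acta1: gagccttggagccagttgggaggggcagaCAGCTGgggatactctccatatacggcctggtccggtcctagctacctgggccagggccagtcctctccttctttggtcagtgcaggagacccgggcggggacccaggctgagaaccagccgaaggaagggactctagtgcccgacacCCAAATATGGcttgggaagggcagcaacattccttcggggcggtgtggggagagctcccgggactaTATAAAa
Adipoq: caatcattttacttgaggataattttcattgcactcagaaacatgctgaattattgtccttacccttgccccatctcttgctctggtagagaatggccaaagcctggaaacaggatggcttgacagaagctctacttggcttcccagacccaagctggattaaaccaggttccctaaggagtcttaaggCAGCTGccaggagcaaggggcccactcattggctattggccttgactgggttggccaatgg

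Among promoters of that length, the E-box was found in 6 of 17 thick filament genes with an entry (35.3%), 11 of 25 thin filament and Z-disc genes (44.0%), 2 of 21 white adipocyte genes (9.52%) and 12.8% of all 27025 promoters. The MEF2 consensus was found in 35.3% of the thick filament promoters, 16% of the thin filament and Z-disc promoters, none of the 21 white adipocyte promoters and 3.01% of all. The CArG box was in 17.6% and 12.0% of those contractile lists and 1.4% of all promoters. Taking these lists with the genes of excitation and calcium handling, 35 of 58 promoters (60.3%) held an E-box, MEF2 or CArG match. The share over all promoters was 16.6%. The TATA box was in 35.3% of the thick filament promoters, 12.0% of the thin filament and Z-disc promoters and 13.0% of all. Among the 11123 tested genes with an entry, the E-box was in 12.1%, the MEF2 consensus in 1.86%, the CArG box in 1.21% and the TATA box in 6.94%. Among genes called lower in white fat, the E-box was in 12.8%, the MEF2 consensus in 3.06% and the TATA box in 7.24%. These matches describe letters in a window and do not show binding.

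The machinery that turns a nerve signal into calcium release followed the contractile genes. Of 24 tested genes of excitation and calcium handling, 22 were lower in white fat and 0 higher (median -8.55), and of 13 tested neuromuscular junction genes 10 were lower and 0 higher (median -4.38). The share lower over all genes was 23.1%. Atp2a1, the calcium pump of the fast-fibre sarcoplasmic reticulum, had 0.388 to 34.0 CPM (median 1.81) in white fat, against 11204 to 18563 CPM (median 16533) in muscle. For Atp2a1 the log2 fold change was -11.83 ± 1.45 (SE; adjusted p = 6.92e-05). Cacng1, a subunit of the skeletal muscle calcium channel, was lower with a standard error of 0.53 (log2 fold change -9.40, adjusted p = 4.17e-07). Stac3, which couples that channel to the release channel, and Ryr1, the release channel itself, had log2 fold changes of -7.55 and -9.44. Atp2a2, the calcium pump of slow fibres, heart and non-muscle cells, had 75.6 to 318 CPM (median 117) in white fat, against 107 to 294 CPM (median 136) in muscle, and its groups overlapped throughout (log2 fold change 0.04, 95% interval -0.75 to 0.83, adjusted p = 0.935). At the nerve contact, Musk, the receptor kinase that gathers acetylcholine receptors, was lower (log2 fold change -7.75, adjusted p = 1.96e-05). Chrna1, the receptor's alpha subunit, had 3 counts in all white fat libraries together and 1274 in muscle.

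Of 29 tested proteasome and ubiquitin ligase genes of muscle, 26 were lower in white fat and 0 higher (median -6.58), where 23.1% of all genes were lower. They were 20 of 21 ligases, adaptors and kelch proteins (median -8.11) and 6 of 8 proteasome subunits (median -1.10), Psmd11, Psmd1, Psma3, Psmb5, Psmc1 and Psmb1. With scaling by library size alone 22 were lower. Trim63, the ligase MuRF1 that marks myosin for breakdown in atrophy, had 0 to 6.91 CPM (median 0) in white fat, against 451 to 9412 CPM (median 774) in muscle (log2 fold change -11.65, adjusted p = 0.000197). The top of that muscle range, 9412 CPM, came from muscle vehicle 1, and the other 5 muscle libraries lay at or below 936 CPM. Kbtbd12, a kelch-repeat protein, had 0.227 to 0.48 CPM (median 0.341) in white fat, against 29.2 to 49.8 CPM (median 38.1) in muscle (log2 fold change -6.69 ± 0.28 (SE), adjusted p = 9.2e-08), the smallest adjusted p of all genes tested.

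The transcription factors that set muscle identity separated the tissues. The summed level of the list was 186 to 387 CPM in white fat and 2452 to 3176 CPM in muscle. Of 18 tested myogenic regulators and partners, 17 were lower in white fat and 0 higher (median -6.07), and with scaling by library size alone 16 were lower and 1 higher. The share lower over all genes was 23.1%, and by library size alone 2029 of 15411 genes were lower and 7302 higher. Myod1, the founding myogenic factor, had 0 to 0.675 CPM (median 0) in white fat, against 6.72 to 97.9 CPM (median 54.5) in muscle. For Myod1 the log2 fold change was -8.73 ± 1.01 (SE; adjusted p = 4.87e-05). The lowest muscle value, 6.72 CPM, was in muscle vehicle 1, where the other 5 held 43.6 to 97.9 CPM. Myf6, the factor most abundant in mature fibres, had a log2 fold change of -8.63, and Smyd1, a methyltransferase needed for sarcomere assembly, had -8.32. Myogenin, which drives terminal differentiation, had 2 counts over all white fat libraries and 2730 over all muscle libraries. Mstn, the secreted brake on muscle growth, had 0 to 0.337 CPM (median 0) in white fat, against 33.2 to 149.6 CPM (median 47.8) in muscle. For Mstn the log2 fold change was -9.45 ± 0.73 (SE; adjusted p = 2.8e-06). Of 15 tested genes listed as muscle-secreted factors, 7 were lower and 0 higher (median -0.77), beside 23.1% lower over all genes. Among the 7 was Musk, a receptor kinase and not a secreted factor. With scaling by library size alone 3 of the 15 were higher. Fndc5, the precursor of irisin, was among the lower ones (log2 fold change -6.72, adjusted p = 9.24e-05).

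Mitochondrial energy genes were lower in white fat as whole pathways, by smaller folds than the contractile genes. All 24 tested genes of the tricarboxylic acid cycle were lower (median -2.07), and of 58 tested respiratory chain genes 55 were lower and 3 higher, Slc25a5, Cox8a and Cox6a1 (median -2.16), beside 23.1% lower over all genes. Scaling by library size alone left 23 and 54 lower. In 23 and 54 of them no white fat library reached muscle, beside 15.6% of all genes. Of the 13 genes encoded in mitochondrial DNA, 7 were lower and 0 higher, median -1.92. mt-Nd2, a subunit of complex I, had 874 to 2382 CPM (median 1830.1) in white fat, against 8572 to 15169 CPM (median 10043) in muscle (log2 fold change -2.65 ± 0.41 (SE), adjusted p = 0.000344), and no white fat library reached the muscle libraries. Sucla2, which makes succinate from succinyl-CoA, had a log2 fold change of -2.90, and Got1, the aspartate transaminase of the malate-aspartate shuttle, was lower too (log2 fold change -5.00 ± 0.31 (SE), adjusted p = 8.44e-07). Ppargc1a, the coactivator that drives mitochondrial biogenesis, had 1.01 to 4.24 CPM (median 1.81) in white fat, against 20.8 to 134 CPM (median 77.8) in muscle. For Ppargc1a the log2 fold change was -5.09 ± 0.48 (SE; adjusted p = 1.06e-05). Of 24 tested genes of fatty acid oxidation, 14 were lower and 1 higher (Cpt1a), and 8 were lower with scaling by library size alone. Fabp3, the fatty acid carrier of muscle and heart, and Cpt1b, the muscle form of the mitochondrial gatekeeper for fatty acids, had log2 fold changes of -8.91 and -4.81. Mb, the oxygen store myoglobin, had 0 to 50.5 CPM (median 0.677) in white fat, against 1406 to 9112 CPM (median 3134) in muscle (log2 fold change -10.39, adjusted p = 0.000806).

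Most tested genes of sugar and phosphocreatine metabolism were lower in white fat, and a few isoform genes were higher. Of 40 tested genes of glycolysis and glycogen, 27 were lower and 7 higher (median -2.80). Of 13 tested creatine and adenylate genes 7 were lower and 3 higher, Ampd2 and Ckb among them (median -3.02). Phkb, a subunit of phosphorylase kinase, which switches on glycogen breakdown, had 22.7 to 29.8 CPM (median 26.3) in white fat, against 367 to 495 CPM (median 423) in muscle (log2 fold change -4.00 ± 0.18 (SE), adjusted p = 9.84e-08), a wide gap with little spread in either tissue. Pygm, the muscle glycogen phosphorylase, and Pfkm, the muscle phosphofructokinase, had log2 fold changes of -9.97 and -8.00. Ckm, muscle creatine kinase, had 0 to 72.7 CPM (median 0.0788) in white fat, against 6210.0 to 12776 CPM (median 8342) in muscle (log2 fold change -11.79, adjusted p = 0.00187), the 72.7 CPM again being white fat vehicle 2. Slc2a4, the insulin-regulated glucose transporter GLUT4 of both tissues, had 9.28 to 167 CPM (median 80.3) in white fat, against 471 to 969.9 CPM (median 749) in muscle (log2 fold change -3.12 ± 0.59 (SE), adjusted p = 0.00122) and did not overlap. Slc2a1, the basal glucose transporter, was higher in white fat (log2 fold change 0.72 ± 0.22 (SE), adjusted p = 0.0151), as was Trarg1. Of 21 tested insulin signalling genes 8 were lower and 3 higher; the shares over all genes were 23.1% lower and 26.5% higher. With scaling by library size alone 2 of them were lower, 5 higher, and 2 called genes changed direction.

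In most pairs of related genes, the gene placed first in the pair took a larger share in white fat than in muscle. In 26 pairs the share of the first gene was computed per exon length, and in 23 pairs the shares in white fat and muscle did not overlap. In 17 pairs the 2 members were called in opposite directions. The first genes are not all widely expressed forms: Fabp4 is the adipocyte fatty acid carrier, and Aldoc made up 0.176% of its pair with Aldoa in white fat. Rpl3, the common ribosomal protein, made up 99.7 ± 0.533% of Rpl3 plus its muscle copy Rpl3l in white fat and 16.8 ± 8.89% in muscle (SD, n = 6 each). The translation factor Eef1a1 made up 99.9 ± 0.1% in white fat and 28.4 ± 7.65% in muscle, the rest being Eef1a2. For the ADP/ATP carriers, Slc25a5 made up 67.3 ± 5.08% of the pair with Slc25a4 in white fat and 4.33 ± 2.06% in muscle. Slc25a4 itself, the heart and muscle carrier, had 143 to 209 CPM (median 194) in white fat, against 2736 to 7095 CPM (median 4390.2) in muscle. For Slc25a4 the log2 fold change was -4.71 ± 0.39 (SE; adjusted p = 4.68e-06). Slc25a5 had 185 to 375 CPM (median 252) in white fat, against 86.6 to 182 CPM (median 131) in muscle (log2 fold change 1.02 ± 0.26 (SE), adjusted p = 0.00686), in every white fat library above every muscle library. For hexokinase, which traps glucose in the cell, Hk1 made up 50.4 ± 15.1% of Hk1 plus Hk2 in white fat and 4.22 ± 0.674% in muscle. Cpt1a, the liver and non-muscle form of the fatty acid gatekeeper, made up 99.1 ± 1.07% of the Cpt1a and Cpt1b pair in white fat and 65.8 ± 7.91% in muscle. Ckb, the brain-type creatine kinase, made up 87.3 ± 28.1% of its pair with Ckm in white fat, with 30.2% in its lowest library, and 0.185 ± 0.0444% in muscle. Cox6a1 made up 99.4 ± 1.2% of the pair with the muscle and heart subunit Cox6a2 in white fat and 15.9 ± 12.4% in muscle; the call for Cox6a1 itself (log2 fold change 1.19, adjusted p = 0.0252) was lost on leaving out white fat quercetin 3 or muscle quercetin 1, quercetin 3, vehicle 1 or vehicle 2 (adjusted p = 0.0502 to 0.0588). Genes with near-identical copies elsewhere, such as Eno1 and the ribosomal proteins, can lose or share reads, and their values are uncertain. For lactate dehydrogenase, the shares of Ldhb overlapped, at 7.90 ± 2.99% in white fat and 16 ± 5.76% in muscle.

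**Figure D2:**
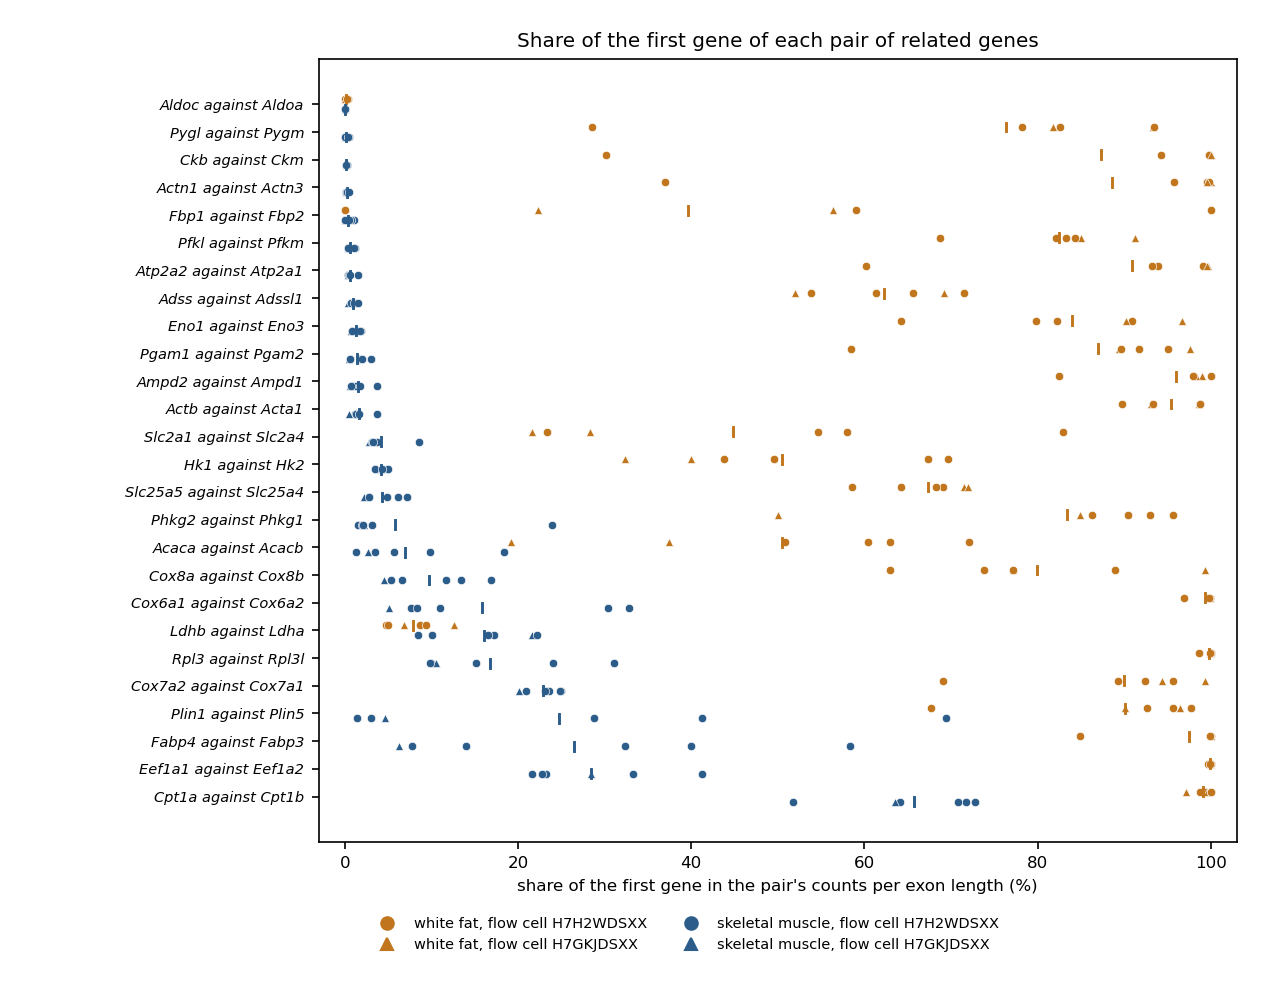
Share of the first gene of each pair, in percent per exon length, for every white fat library and every muscle library, 1 point per library. The mean share is higher in white fat in 25 of 26 pairs, such as Rpl3 and Rpl3l (99.7% in white fat and 16.8% in muscle), and is at least 90% in white fat in 10 of 26, while the points of the Ldha and Ldhb pair overlap.

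Adipocyte genes had a positive median difference, a wide spread among libraries, and few that passed the test. Of 30 tested white adipocyte markers 7 were higher and 0 lower (median 2.34), beside 26.5% higher over all genes. In none of the 30 did every white fat library lie above every muscle library. The share of all genes that did was 9.29%. Lipe, hormone-sensitive lipase, had 39.5 to 2621 CPM (median 375) in white fat, against 25.8 to 318 CPM (median 53.1) in muscle. For Lipe the log2 fold change was 2.84 ± 0.93 (SE; adjusted p = 0.0239). Scd1, which desaturates stearate, had 891 to 19598 CPM (median 6025) in white fat, against 25.1 to 2966 CPM (median 456) in muscle. For Scd1 the log2 fold change was 3.16 ± 1.10 (SE; adjusted p = 0.0319). Dgat1, which closes triglyceride synthesis, had 25.2 to 462 CPM (median 91.1) in white fat, against 19.9 to 64.4 CPM (median 29.9) in muscle. For Dgat1 the log2 fold change was 2.01 ± 0.62 (SE; adjusted p = 0.018). These 3 passed although their groups overlapped, and Trarg1, a partner of GLUT4 vesicles, passed as well (log2 fold change 3.01, adjusted p = 0.0305). Adipoq (ENSMUSG00000022878, chromosome 16, 23146536 to 23158028, plus strand), the hormone adiponectin, had 18.0 to 1170.0 CPM (median 666) in white fat, against 3.88 to 512 CPM (median 31.9) in muscle, and did not pass (log2 fold change 2.38, 95% interval -0.31 to 5.07, adjusted p = 0.128). Lep, the satiety hormone leptin, had 1.18 to 614 CPM (median 140.1) in white fat, against 0.132 to 77.6 CPM (median 4.48) in muscle. For Lep the log2 fold change was 3.48 ± 1.5 (SE; adjusted p = 0.0719). Fabp4, the adipocyte fatty acid carrier, had 419 to 26510.0 CPM (median 5908) in white fat, against 412 to 3739 CPM (median 1368) in muscle. For Fabp4 the log2 fold change was 2.29 ± 0.90 (SE; adjusted p = 0.0505). The lowest white fat value of Adipoq was in white fat vehicle 2 and the highest muscle value of Adipoq in muscle vehicle 3. Without those 2 libraries, 25 of the 30 markers were higher and 0 lower, with a median of 3.88. On leaving out 1 library, the count was 0 without white fat vehicle 1, 3 without white fat quercetin 2 or quercetin 3 or muscle vehicle 1, 1 without muscle quercetin 1, quercetin 3 or vehicle 2, 16 without white fat vehicle 2 and 22 without muscle vehicle 3. With scaling by library size alone 16 were higher, and in the 2 white fat libraries of flow cell H7GKJDSXX against all muscle, 18 were higher and 0 lower, where 26.8% of all genes were called (12.0% higher and 14.7% lower). Within flow cell H7H2WDSXX (4 white fat and 5 muscle libraries) 0 markers were higher (median 1.03), and with flow cell as a covariate 0 were (median 1.82). DESeq2 called 21 of the 30 higher and limma voom 17, with adjusted p = 0.0322 and 0.036 for Adipoq and 0.0062 and 0.0274 for Lep, and the replicate block gave 16.

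**Figure D3:**
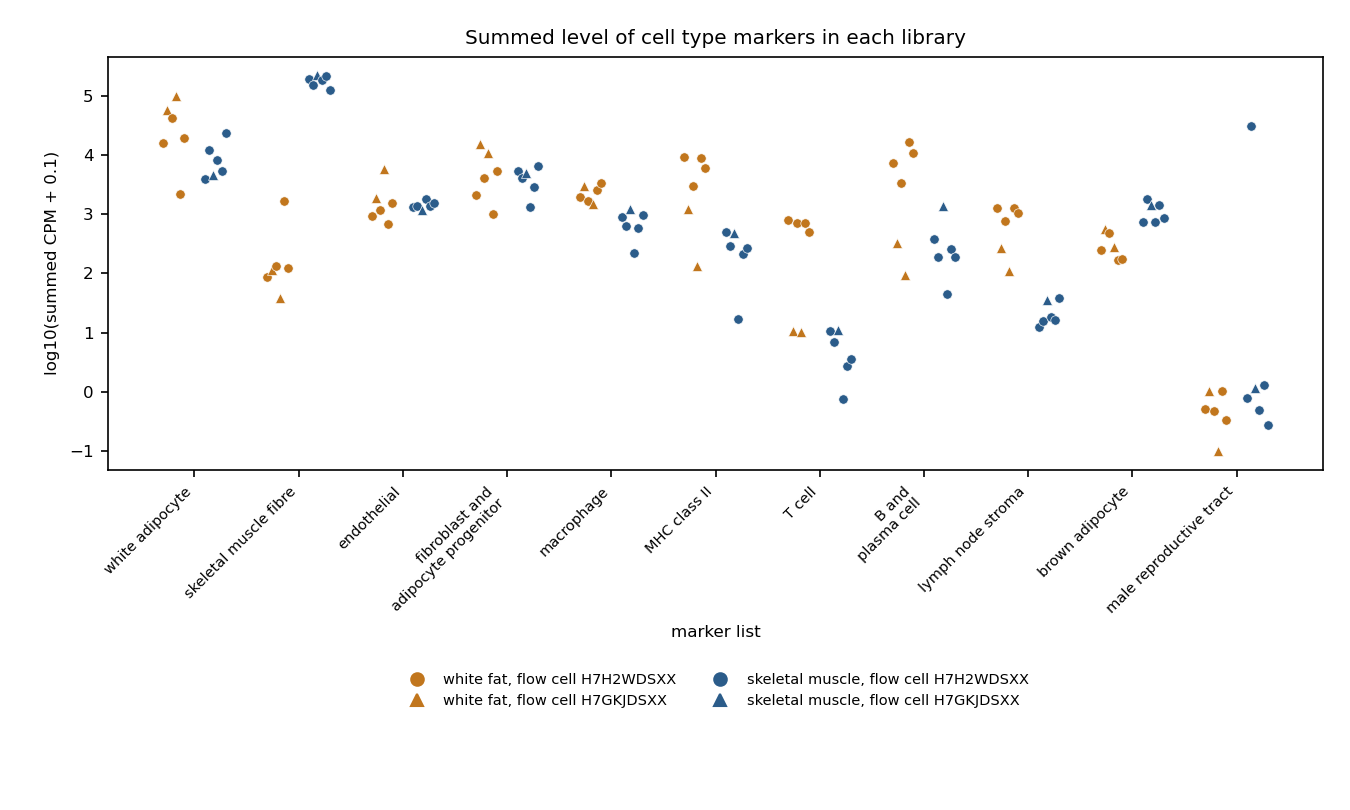
Summed CPM of marker lists on a log axis, with 1 point per library and white fat beside muscle. White fat vehicle 2 is the lowest white fat library for white adipocyte markers (2154 CPM) and the highest for muscle fibre markers (1682 CPM), and T cell markers divide the white fat libraries into 2 low and 4 high.

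Of 22 tested lipogenic genes 7 were higher and 1 lower, of 23 tested lipolysis and lipid droplet genes 5 were higher and 1 lower, and of 19 tested adipokines 3 were higher (Apoe, Angptl4 and Rarres2) and 2 lower (Nampt and Bmp4), beside 26.5% higher and 23.1% lower over all genes. Without white fat vehicle 2 and muscle vehicle 3 the higher counts were 15, 11 and 10, and within flow cell H7H2WDSXX they were 2, 1 and 1. On leaving out 1 library, the synthesis count was 2 to 4 without muscle quercetin 1, 2 or 3, muscle vehicle 2, white fat quercetin 3 or white fat vehicle 1, and 13 without muscle vehicle 3. Without white fat vehicle 1 the lower count was 3 in both the synthesis and the lipolysis list. The lipolysis count was 2 or 3 without muscle quercetin 1, quercetin 3 or vehicle 2 or white fat quercetin 3 or vehicle 1, 8 without muscle vehicle 3 and 11 without white fat vehicle 2, and the adipokine count was 10 without muscle vehicle 3 and 5 without white fat vehicle 2. Elovl5, which lengthens polyunsaturated fatty acids, had 83.6 to 105 CPM (median 98.3) in white fat, against 27.8 to 53.9 CPM (median 46.3) in muscle (log2 fold change 1.15 ± 0.20 (SE), adjusted p = 0.000747) with every white fat library above every muscle library. Bscl2, the droplet-forming protein seipin, had 56.0 to 499.5 CPM (median 153) in white fat, against 14.6 to 80.8 CPM (median 19.0) in muscle. For Bscl2 the log2 fold change was 2.48 ± 0.60 (SE; adjusted p = 0.00484). Apoe (ENSMUSG00000002985, chromosome 7, 19696109 to 19699188, minus strand), the lipoprotein ligand made by adipocytes and macrophages, had 3169 to 8766 CPM (median 4404) in white fat, against 194 to 1303 CPM (median 704) in muscle without overlap. For Apoe the log2 fold change was 2.89 ± 0.51 (SE; adjusted p = 0.00082). Angptl4, which inhibits lipoprotein lipase, was higher too (log2 fold change 2.86 ± 0.80 (SE), adjusted p = 0.011). Lpl and Cd36, which act in fatty acid uptake in both tissues, did not pass. Lpl, the lipase that frees fatty acids from lipoproteins, had 160.1 to 4993 CPM (median 1752) in white fat, against 718 to 2059.9 CPM (median 1246) in muscle (log2 fold change 0.74, adjusted p = 0.347), and Cd36, the fatty acid translocase, had 43.4 to 6355 CPM (median 950.0) in white fat, against 498 to 2225 CPM (median 856) in muscle (log2 fold change 0.68, adjusted p = 0.514). In the opposite direction, Lpin1, the phosphatase that makes diacylglycerol, was below muscle in every white fat library (log2 fold change -1.77 ± 0.57 (SE), adjusted p = 0.0218). Fitm1, the droplet protein of muscle, was lower by a log2 fold change of -8.52, and Nampt, the NAD-making enzyme that is also secreted, was lower with no overlap (log2 fold change -1.23 ± 0.22 (SE), adjusted p = 0.00086).

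A list of fat cell formation held transcription factors and coregulators, and also the secreted signal Bmp4. Of its 20 tested genes, 6 were higher and 4 lower in white fat, beside 26.5% higher and 23.1% lower over all genes. The median of the list was -0.19 (0.37 with scaling by library size alone, with 8 higher and 2 lower). The higher count was 2 without muscle quercetin 1 or vehicle 2 and 3 without white fat quercetin 2 or muscle quercetin 3, and the lower count was 8 without white fat vehicle 1. Ebf1, an early B cell factor that also acts in adipocytes, and Tle3, a coregulator of the adipocyte programme, lay above muscle in every white fat library (log2 fold change 1.81 ± 0.32 (SE), adjusted p = 0.000827 for Ebf1, and log2 fold change 1.89 ± 0.32 (SE), adjusted p = 0.000556 for Tle3). Cebpa, the factor of terminal fat cell differentiation, had 63.7 to 1479.7 CPM (median 441) in white fat, against 13.1 to 320.3 CPM (median 41.1) in muscle with overlap and just passed the test. Klf5, a zinc finger factor (log2 fold change -3.67, adjusted p = 0.00148), Bmp4, Cebpd and Klf15 were the 4 lower ones. Of 21 tested coactivators and nuclear receptors of muscle, 12 were lower and 1 higher, the vitamin D receptor Vdr (log2 fold change 2.45). Ucp1, the uncoupling protein of brown fat, was near 0 in most libraries, with 0 to 18.2 CPM (median 0.646) in white fat, against 0 to 299 CPM (median 0.373) in muscle; the 299 CPM was in muscle quercetin 2, and its log2 fold change was -1.19 (adjusted p = 0.813) with that library and 4.30 (adjusted p = 0.0425) without it.

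Lymphocyte and macrophage transcripts were among the genes furthest above muscle in white fat. The lymphocyte level, and that of Marco and Cd5l, moved with the flow cell. Of the 8 tested T cell markers 8 were higher (median 7.36), as were 10 of 11 B and plasma cell markers (median 8.94), 6 of 7 lymph node stroma markers (median 6.79), 7 of 7 MHC class II genes (median 4.23) and 10 of 16 macrophage markers (median 1.59), where 26.5% of all genes were higher. A marker near 0 in muscle passed the count filter only through white fat libraries where it was high and could be called only higher. Such counts, also within 1 flow cell, are partly fixed in advance. Among genes without overlap and with a mean of at least 50 CPM in white fat, the 10 furthest above were Marco, Cd5l, Carmil2, Lck, Acap1, Lat, Fcho1, Rac2, Napsa and Gpr132. Marco, a scavenger receptor of macrophages, had 0.233 to 263 CPM (median 151) in white fat, against 0 to 0.0878 CPM (median 0) in muscle, with 1 count in all muscle libraries. In white fat vehicle 1 and quercetin 2, of flow cell H7GKJDSXX, Marco was at 2.02 and 0.233 CPM. In the white fat libraries of H7H2WDSXX it was at 130 to 263 CPM. Cd5l was at 1.30 and 1.01 CPM in the former and at 41.7 to 119 CPM in the latter. Lck, the kinase that starts T cell receptor signalling, had 2.95 to 185 CPM (median 118) in white fat, against 0.132 to 1.35 CPM (median 0.635) in muscle. For Lck the log2 fold change was 7.24 ± 1.06 (SE; adjusted p = 0.000239). Rac2, the GTPase of blood cells, and Lat, the scaffold under the T cell receptor, had log2 fold changes of 6.28 and 6.79. Summed B and plasma cell markers were 7208, 326 and 3320 CPM in white fat quercetin 1, 2 and 3 and 92.2, 16167 and 10913 CPM in white fat vehicle 1, 2 and 3, against 44.3 to 1371 CPM in muscle. The 2 low libraries were the 2 of flow cell H7GKJDSXX. With these 2 alone against muscle, 1 of 4 tested T cell markers was higher (median 1.23), 0 of 6 B and plasma cell markers (median -0.22), 2 of 4 lymph node stroma markers, 0 of 7 MHC class II genes (median 0.77) and 7 of 16 macrophage markers (median 1.64), beside 12.0% of all genes. Summed macrophage markers were 2937 and 1495 CPM in the white fat libraries of H7GKJDSXX and 1685 to 3302 CPM in those of H7H2WDSXX, which overlap. Within flow cell H7H2WDSXX, 8 of 8 T cell markers and 11 of 11 B and plasma cell markers were higher. In white fat, the flow cell and the lymphoid level cannot be told apart.

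Some of these genes stayed higher in the 2 libraries with few lymphocyte transcripts. Madcam1, the vessel address protein of mucosal and lymphoid venules, had 1.48 to 10.3 CPM (median 3.31) in white fat, against 0 to 0.113 CPM (median 0) in muscle over all libraries, with 2 counts in muscle, and passed the test in the 2 libraries alone (adjusted p = 0.00137). Cxcl13, the chemokine that draws B cells, had 97.0 to 449 CPM (median 269) in white fat, against 7.55 to 33.8 CPM (median 15.4) in muscle (log2 fold change 3.83 ± 0.48 (SE), adjusted p = 8.64e-05) and a log2 fold change of 3.02 (adjusted p = 0.00623) in the 2 libraries alone. Lck passed there as well (log2 fold change 3.04, adjusted p = 0.0159). Of 17 tested interferon and MHC class I genes, 15 were higher over all libraries (median 2.38), 17 with scaling by library size alone and 6 in the 2 libraries alone (median 1.61). Over all genes 26.5%, 7302 of 15411 and 12.0% were higher in those fits, in that order. H2-D1, a classical class I molecule shown by nearly all cells, had 2209 to 2999 CPM (median 2662) in white fat, against 412 to 791 CPM (median 470.0) in muscle without overlap (log2 fold change 2.38 ± 0.28 (SE), adjusted p = 5.2e-05), and in the 2 libraries alone it passed too (log2 fold change 2.38, adjusted p = 0.00156). Psmb8, a subunit of the immunoproteasome, and Tap1, the peptide transporter, had log2 fold changes of 3.55 and 3.89 over all libraries.

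**Figure D4:**
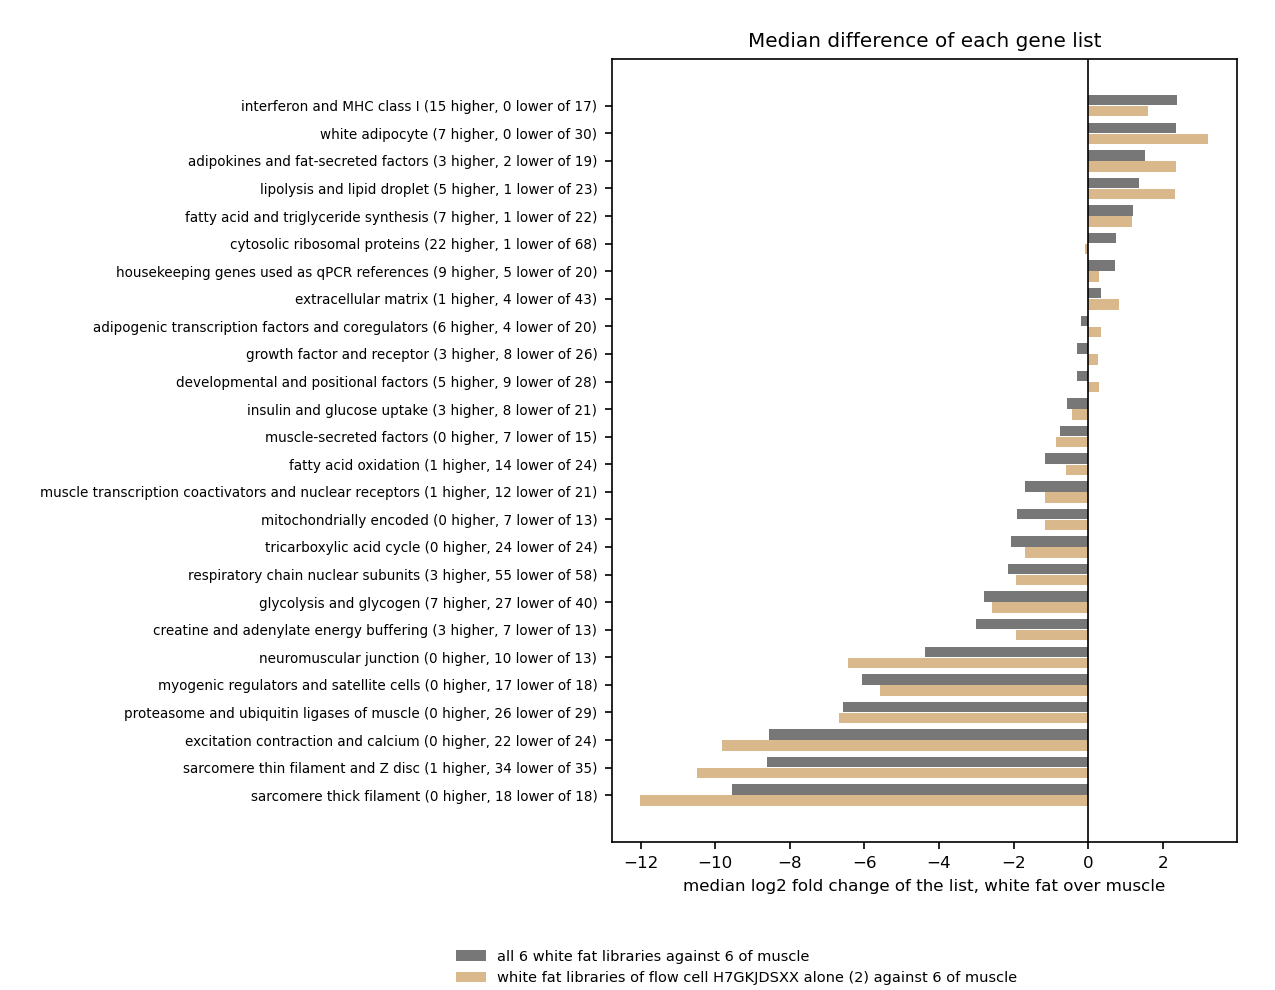
Median log2 fold change, white fat over muscle, of each gene list, for all 6 white fat libraries and for the 2 libraries of flow cell H7GKJDSXX, both against the 6 muscle libraries. The lists of the thick filament, of the thin filament and Z-disc, and of calcium handling lie lowest, the thick filament list at -9.56 with all libraries. The white adipocyte list is at 2.34 with all libraries and 3.22 with the 2 libraries.

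Few endothelial, matrix and fibroblast genes were called. Over all genes 26.5% were higher and 23.1% lower, the shares to set beside the counts below. With the 2 libraries of flow cell H7GKJDSXX 12.0% of all genes were higher, and within flow cell H7H2WDSXX 3850 of 15604 were lower. Of 14 tested endothelial markers 1 was higher and 0 lower (median 0.25), and 9 were higher in the 2 libraries of flow cell H7GKJDSXX; without white fat vehicle 1, 3 were lower. That 1 was Plvap, which forms the diaphragms of fenestrated vessels, with 179 to 390.4 CPM (median 194) in white fat, against 44.6 to 95 CPM (median 58.6) in muscle without overlap. For Plvap the log2 fold change was 1.86 ± 0.25 (SE; adjusted p = 0.000138). Of 43 tested matrix genes 1 was higher and 4 lower, Col22a1, Tnmd, Thbs4 and Col6a6 (median 0.33), and without white fat quercetin 2, white fat vehicle 1 or muscle vehicle 1 the lower count was 11, 8 or 7; within flow cell H7H2WDSXX it was 12 with a median of -0.73. The higher one was Bgn, the proteoglycan biglycan (log2 fold change 1.17, adjusted p = 0.0408). The higher count was 0 without white fat quercetin 2, quercetin 3 or vehicle 1 or any 1 of the 6 muscle libraries, and 2 without white fat vehicle 2. Col22a1 is a collagen of the muscle-tendon junction and was lower (log2 fold change -5.84, adjusted p = 5e-05). Col1a1, the main fibrillar collagen chain, did not pass (log2 fold change 0.94, adjusted p = 0.377). Of 26 tested growth factor genes 3 were higher and 8 lower, and with scaling by library size alone 6 were higher and 5 lower and 1 called gene changed direction; the higher count was 1 without white fat quercetin 2 and 5 without white fat vehicle 2. Tgfb1, the cytokine that drives matrix deposition, had 43.3 to 229 CPM (median 141) in white fat, against 20.4 to 30.5 CPM (median 23.0) in muscle without overlap. For Tgfb1 the log2 fold change was 2.52 ± 0.35 (SE; adjusted p = 0.000166). Tgfbr2, its receptor chain, and Igfbp7, a secreted IGF-binding protein, were the other higher ones (log2 fold changes 1.18 and 1.03). Fgf1, a broadly acting fibroblast growth factor, was lower (log2 fold change -2.91, adjusted p = 2.99e-05), and Bmp4, a signal that commits progenitors to fat, lay below muscle in every white fat library (log2 fold change -1.85). Fgf6, a growth factor of muscle, had no count in white fat and was at least 114-fold lower there. Of 15 tested fibroblast and progenitor markers 1 was higher and 2 lower, with 6 lower without white fat quercetin 2 and 4 without muscle vehicle 1. The higher count of these was 0 without white fat quercetin 1, vehicle 2 or vehicle 3 or muscle quercetin 1, quercetin 3 or vehicle 2. Their lower count was 1 without white fat quercetin 1, quercetin 3, vehicle 2 or vehicle 3 or muscle quercetin 2, quercetin 3, vehicle 2 or vehicle 3. Of 8 pericyte and smooth muscle genes 3 were lower (6 without white fat vehicle 1): Des, the filament desmin that fibres also make, Myh11, smooth muscle myosin, and Rgs5, a pericyte marker (log2 fold change -2.12). The only fibroblast marker higher was Dpp4, a surface peptidase of progenitors, and the lower ones were Smoc2 and Cd34. Of 13 tested brown adipocyte markers 6 were lower and 0 higher, among them Ppargc1a, Cpt1b and Cox8b, which muscle also makes. Of 6 tendon and cartilage markers 4 were lower (Scx, Tnmd, Thbs4 and Comp), of 4 mesothelial markers 2 were lower (the keratins Krt8 and Krt18), of 4 keratinocyte and mammary markers 1 was lower (Trp63), and of 5 red blood cell markers none was called. Of 10 Schwann cell markers 1 was lower (Pou3f1), and 0 without white fat quercetin 1, quercetin 3, vehicle 2 or vehicle 3 or muscle quercetin 2, quercetin 3, vehicle 2 or vehicle 3. Of 7 neutrophil and mast cell markers 4 were higher (Kit, Mcpt4, Cma1 and Tpsb2, genes of mast cells), and 2 without white fat quercetin 2, quercetin 3, vehicle 2 or vehicle 3 or muscle quercetin 1, quercetin 2 or vehicle 2.

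Of 28 tested homeobox, T-box and related factors 5 were higher and 9 lower in white fat, beside 26.5% higher and 23.1% lower over all genes (median of the list -0.31; 0.23 with scaling by library size alone), and 3 were higher without white fat quercetin 3, white fat vehicle 3 or muscle quercetin 1. Tbx15, a T-box factor of muscle and of some fat depots, had 6.14 to 21.9 CPM (median 14.0) in white fat, against 259 to 424 CPM (median 325) in muscle without overlap. For Tbx15 the log2 fold change was -4.61 ± 0.39 (SE; adjusted p = 5.43e-06). Hoxc10, a factor of hindlimb and posterior fat, had 1.77 to 12.7 CPM (median 8.81) in white fat, against 52.4 to 128 CPM (median 82.1) in muscle, again without overlap (log2 fold change -3.44 ± 0.45 (SE), adjusted p = 0.000119). Tbx4, the hindlimb T-box factor, had 4 counts in white fat and 183 in muscle. In the other direction, Gata6, a zinc finger factor of mesodermal tissues and of large peritoneal macrophages, lay above muscle in every white fat library (log2 fold change 2.82 ± 0.42 (SE), adjusted p = 0.000254), and the homeobox genes Hoxc8 (log2 fold change 1.79, adjusted p = 0.0187), Hoxb4, Hoxb7 and Hoxb8 were higher.

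Several genes often used as references differed between the tissues. Of 20 tested, 9 were higher and 5 lower in white fat, beside 26.5% higher and 23.1% lower over all genes. With scaling by library size alone 14 were higher and 3 lower, with no called gene changing direction. Without muscle vehicle 2, 3 were lower. Gapdh, the glycolytic enzyme, had 30.3 to 147 CPM (median 64.7) in white fat, against 149.9 to 1246 CPM (median 319.9) in muscle (log2 fold change -2.68, 95% interval -3.98 to -1.38, adjusted p = 0.00312), and its processed copies make its count uncertain. Actb, cytoplasmic actin, went the other way, with 1754 to 4523 CPM (median 2654) in white fat, against 369 to 1089.9 CPM (median 579) in muscle (log2 fold change 2.20, adjusted p = 0.000801). Sdha, a subunit of complex II, and Pgk1, a glycolytic kinase, were lower, at log2 fold changes of -1.96 and -2.36, and B2m, the light chain of MHC class I, was higher at 2.09. For Tbp, the TATA-binding protein, the 95% interval was -0.30 to 0.87 on the log2 scale, and for Eef2, an elongation factor, it was -0.68 to 0.75. Both intervals lay within a 2-fold change in either direction, as did those of 2851 genes, or 18.5% of all. This holds for TMM: with scaling by library size alone Tbp was higher (log2 fold change 0.98, adjusted p = 0.0129), and Eef2 was at 0.76 (adjusted p = 0.0526). Of 68 tested ribosomal protein genes 22 were higher and 1 lower (median 0.75). Over all genes 26.5% were higher, and 12.0% with the 2 libraries of flow cell H7GKJDSXX. By library size alone 7302 of 15411 genes were higher, and within flow cell H7H2WDSXX 4356 of 15604. The higher count of ribosomal genes was 67 with scaling by library size alone and 7 to 32 on leaving out 1 library. For the 2 libraries of H7GKJDSXX the higher count was 1, and within H7H2WDSXX it was 49. On leaving out 1 library, the higher count was 7 without muscle quercetin 1 or white fat quercetin 1, 8 without muscle quercetin 2, 10 or 11 without white fat quercetin 3 or vehicle 2 or muscle vehicle 2 or vehicle 3, 14 without white fat vehicle 3 and 32 without white fat vehicle 1.

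**Figure D5:**
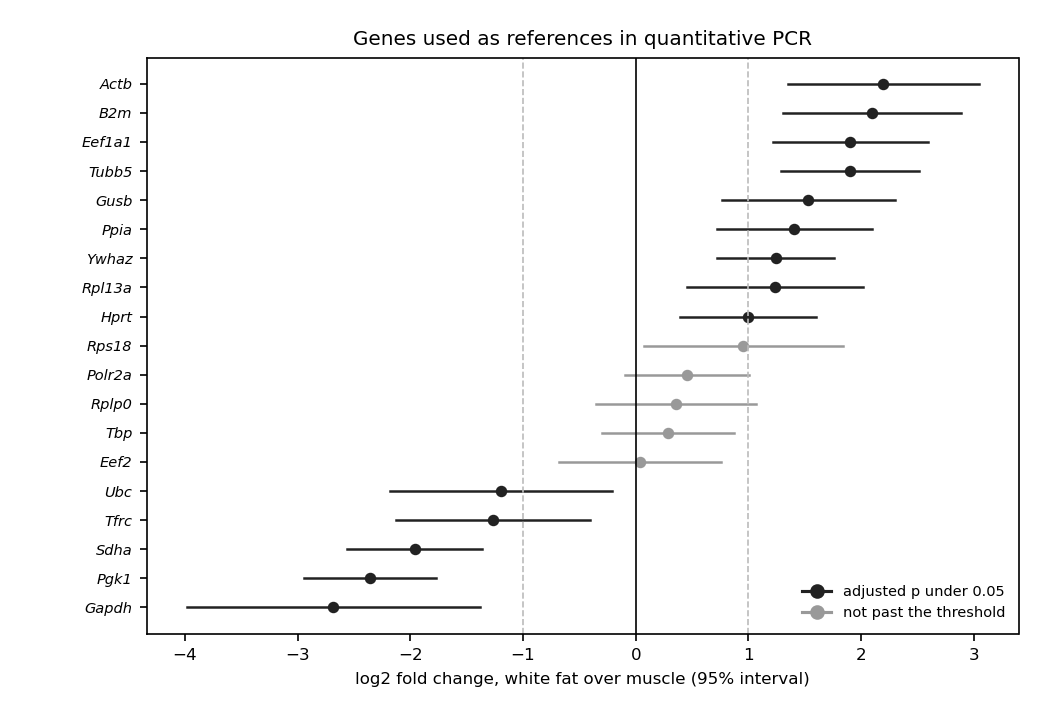
Log2 fold change, white fat over muscle, of genes often used as references, with 95% intervals as bars. Gapdh lies at -2.68 and Actb at 2.20, while Tbp and Eef2 lie near 0.

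With the vehicle libraries alone, 3 white fat against 3 muscle, 13982 genes were tested and 11.5% were called, 3.77% higher in white fat (527 genes) and 7.77% lower (1087 genes). These libraries are also part of the full comparison, so 522 of the 527 and 1084 of the 1087 being called there in the same direction is no independent check. Many contractile genes were lower again: 12 of 17 thick filament genes, 27 of 35 thin filament and Z-disc genes and 21 of 24 excitation and calcium genes. Energy lists differed: 13 of 24 tricarboxylic acid cycle genes and 35 of 58 respiratory chain genes were lower, but 0 of 13 mitochondrially encoded genes. Of 24 fatty acid oxidation genes 2 were lower and 1 higher, and of 13 creatine and adenylate genes 3 were lower and 1 higher. Acta1 had a log2 fold change of -7.81 ± 1.98 (SE; adjusted p = 0.0481) and Phkb of -4.04 ± 0.40 (SE; adjusted p = 0.00551). Ckm did not pass (adjusted p = 0.073). With the replicate number as a block, 2475 genes were called, 1300 higher and 1175 lower, among them 16 of 19 thick filament, 31 of 35 thin filament and Z-disc, 21 of 24 excitation and calcium, 8 of 24 tricarboxylic acid cycle and 26 of 58 respiratory chain genes, all lower. The blocked fit called 0 of 13 mitochondrially encoded, 5 of 24 fatty acid oxidation and 5 of 13 creatine and adenylate genes lower, and 0 of them higher. In the blocked fit Acta1 (adjusted p = 0.0385) and Phkb (adjusted p = 0.0137) passed and Ckm did not (adjusted p = 0.052). None of the white adipocyte markers was called with or without the block, and with the quercetin libraries alone 17 were higher. In this fit the 2 libraries with mixed transcripts, white fat vehicle 2 and muscle vehicle 3, were each 1 of 3. The count of calls was 4413, 493 or 82 without white fat vehicle 1, 2 or 3, and 450, 58 or 314 without muscle vehicle 1, 2 or 3.

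The difference between tissues was compared between treatments as the quercetin effect in white fat minus that in muscle. Of 15939 genes, 0 were called by edgeR (0.0%), 231 had an unadjusted p under 0.05, and the smallest adjusted p was 0.99997. DESeq2 called 5 genes, all with the more negative effect in white fat, and limma voom called 0. The 5 were the fibre genes Actn3, Ckm and Pvalb and the immunoglobulin genes Ighv5-15 and Igkv3-2, each with an adjusted p of 0.049. White fat vehicle 2 held the 72.7 CPM of Ckm and 71.3 CPM of Actn3 that top the white fat range, and its part in these calls was not tested. The smallest p-values were of Synpo2l, Lpar3, Igkv3-2, Gm2004 and Phlpp1. For Adipoq the interaction was 1.59 on the log2 scale (95% interval -3.59 to 6.76), and for Slc2a4 it was 0.55 (-1.93 to 3.04), intervals that span several-fold changes in both directions.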

How the data were processed

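The authors deposited raw read counts per gene, 53465 genes and 5 summary lines per library; the summary lines were left out of library sizes and tests. HISAT2, HTSeq, DESeq2 and the build mm10 are named in the submitters' processing notes, per the labels without versions or settings; no annotation release or strand setting is stated in the sources used here, so overlapping and antisense genes cannot be told apart. RNA was extracted with TRIzol and libraries were made with a NEBNext Ultra kit, per the labels' protocols. Symbols and coordinates came from GENCODE vM21 on GRCm38 (53360 IDs matched).

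Counts were tested with edgeR 4.0.16 in R 4.3.3: TMM, filterByExpr (minimum count 10, total 15), quasi-likelihood test, two-sided, Benjamini-Hochberg adjustment over all genes tested, threshold 0.05. The main model held tissue and treatment; the vehicle libraries were fitted alone, and the interaction in a model with 1 mean per group. SE is the fold change over the square root of F. Isoform shares used union exon lengths. DESeq2 1.42.0, limma 3.58.1 and other alternatives are given in the closing section. The procedure was tested on simulated counts. The comparison and the gene lists were chosen with earlier results of these data known. Named genes are the 10 largest fold changes in each direction without overlap and with a mean of at least 50 CPM in the higher tissue, the smallest p-values of each list, both members of each isoform pair, a panel of 20 genes, the 10 most abundant genes per tissue and the 5 smallest interaction p-values; other genes were named after their values were seen, and some named items are not reported here. The labels number the libraries within each arm but do not say that these numbers mark animals. Deviations of same-numbered white fat and muscle libraries correlated at 0.085, 0.109 and -0.031 in the quercetin arm and at 0.184, 0.284 and 0.311 in the vehicle arm; 5 of 6 white fat libraries correlated best with their own number. The vehicle comparison was fitted without a block. Because of this hint of pairing in the data, values with the replicate number as a block are given beside it. A p-value here measures the spread between libraries, which may be technical. Counting noise did not account for the differences between replicates (lowest chi-square per degree of freedom 50.1 over 12 pairs).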

Additional observations from a re-analysis of the deposited data

Results flagged for a closer look

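Dixon's test was run on 110 groups of 6 libraries, on log2(CPM + 0.5), and found 20 values standing apart; chance alone gives about 1 in 20 groups. The values are given without explanation, and their causes were not tested.

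White fat vehicle 2 accounted for 9 of them. It held 18.0 CPM of Adipoq (335 to 1170.0 in the other 5 white fat libraries) and 159.9 CPM of Cfd, the adipocyte protease adipsin (2694 to 9214.5 in the others). Its muscle transcripts were high: Myod1 at 0.675 CPM (0 to 0.08 in the others), Mb at 50.5 (0 to 2.24), Actn3 at 71.3 (0 to 2.56), Trim63 at 6.91 (0 in the others), Mylk4, a myosin light chain kinase family member, at 2.02 (0 to 0.240) and Abra, an actin-binding protein of striated muscle, at 2.28 (0 to 0.245). Its summed muscle fibre markers were 1682 CPM, against 37.7 to 133 in the others.

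Muscle vehicle 1 accounted for 7. Myod1 was at 6.72 CPM (43.6 to 97.9 in the other 5 muscle libraries), Mstn at 149.6 (33.2 to 53.8), Mybph at 4.91 (158 to 466), Trim63 at 9412 (451 to 936) and Mylk4 at 19.9 (863 to 1736). Its summed MHC class II genes were 16.5 CPM (213 to 489) and its summed tendon and cartilage markers 14.1 CPM (190 to 482).

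Muscle quercetin 2 held 299 CPM of Ucp1 (0 to 0.775 in the others) and 31002 CPM of summed male reproductive tract markers (0.176 to 1.19). Muscle vehicle 3 held 0.0878 CPM of Marco, a single count where the others had 0, and muscle quercetin 1 held 1.47 CPM of Gpr132 (0.388 to 0.660).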

How the results depend on the processing

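Contractile, calcium, tricarboxylic acid cycle and respiratory chain lists kept their direction under all alternatives run on the 6 against 6 comparison; the counts of calls did not. Higher and lower calls were 7302 and 2029 with scaling by library size alone, 1978 and 1747 (3725 in all) against a 2-fold change, 527 and 1087 (1614) in vehicle libraries, 2538 higher in quercetin libraries, and 1808 and 2207 (4015) with white fat of flow cell H7GKJDSXX alone, an alternative added after seeing the data. The 1179 higher genes called in both fits are 28.9% of those of the full comparison and 65.2% of those with H7GKJDSXX alone, and the 1977 lower genes are 55.6% and 89.6%; the fits share libraries. Of 3278 genes called higher in the full comparison and tested there, 3124 kept their sign and 3 were called lower. In vehicle libraries the calls were 1010 higher and 679 lower by library size alone, 2585 with 1326 higher without a filter, 3578 (1717 and 1861) with DESeq2, 6036 (2774 and 3262) with limma voom, and 490 (121 and 369) without white fat vehicle 2 and muscle vehicle 3. Leaving out 1 vehicle library gave 58 to 4413 calls, 0 to 2428 higher and 58 to 1985 lower. For the interaction DESeq2 called 5, all 5 lower. The replicate block gave 4366 higher and 3811 lower over all libraries, and 2475 with 1300 higher in vehicle libraries. Among the panel and isoform pair genes, directions turned for 6, none of them called in the full comparison. Acacb was 0.0214 on the log2 scale with white fat of H7GKJDSXX alone. Atp2a2 was -0.30 with voom, -0.10 with the block, -0.29 with flow cell as covariate, -0.60 in flow cell H7H2WDSXX, -0.18 in vehicle libraries and -0.24 to 0.23 on leaving out 1 library. Cd36 was -0.26, -0.24, -0.16 and -1.05 under the first 4 of these and -0.54 (without white fat vehicle 1) to 0.93 on leaving out 1 library, and Lpl -0.12 in H7H2WDSXX. Ucp1 was 1.45 with the block, 0.16 with the covariate, 0.76 in H7H2WDSXX and -4.02 to 4.30 (without muscle quercetin 2) on leaving out 1 library. Vegfa was 0.0139 with DESeq2 size factors, 0.0137 with DESeq2, 0.48 by library size alone, 0.88 in vehicle libraries, 1.4 with white fat of H7GKJDSXX alone and -1.55 to 0.23 on leaving out 1 library. The causes were not tested. At this depth a white fat gene at 0 allows up to 0.0422 CPM over the 6 libraries, counting error only.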
